A study of Arabidopsis thaliana with 12 samples.

Results

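A pair of nuclear genes of the mTERF family, mTERF9 (AT5G55580) and AT3G18870, were read in Arabidopsis thaliana given proline. They were selected on their measured proline against water differences in these same 12 samples, which had opposite signs, and each is read by a probe annotated to that gene alone. They are 2 of the 691 loci that the array reads under a single gene name. The plants were wild type of the ecotype Wassilevskija. Total RNA of plants kept for 48 h with 100 mM proline (6 samples), a treatment meant to bring cellular proline to a toxic level, was compared with that of 6 samples labelled as water, which the labels also call untreated. All 12 samples share that genotype, and no tissue, age or growth condition is labelled, so the tissue could not be checked against markers. No label tells whether the samples are separate plants or cultures, so spreads and p-values describe these samples, and the differences among them may be technical.

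The mTERF proteins are named after the human mitochondrial transcription termination factor and are built from repeated helical mTERF motifs that bind nucleic acids. Plants have many more of them than animals. They are encoded in the nucleus and imported into chloroplasts or mitochondria, where members act in the transcription, RNA processing or translation of the organelle's own genes. mTERF9 is a chloroplast protein needed for normal plastid ribosome assembly and translation, and its loss alters leaf development and responses to salt and abscisic acid. No specific role is given here for AT3G18870. Proline is oxidised in mitochondria, and an excess of it is toxic to plants.

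The array table held 3439 probes with relative intensities on a linear scale. The median of the values above 0 ranged from 0.0325 to 0.0963 between arrays, and 8.43% of all values were exactly 0. Samples numbered 1 and 2, 3 and 4, and 5 and 6 in each group are called sets 1, 2 and 3. In the limma fit over all features on 12 samples, 401 of 3045 features passed an adjusted p of 0.05 (13.2%), of which 168 were higher with proline (5.52%) and 233 lower (7.65%). With the set as a random block 82 passed (2.69%, of which 1.15% were higher and 1.54% lower). With set means in place of samples none did in limma, where 472 of 3269 features had an unadjusted p under 0.05. Both of these fits leave out the pairing of water with proline samples. With the set as a fixed block shared by both groups 783 of 3045 passed. Of the calls, 41.9% were higher after quantile normalization, 62.6% with arrays centred on the median, 54.1% with cyclic loess, 54.2% and 56.1% with zeros kept at an offset of 0.01 and 0.001, and 85.0% with no normalization between arrays. Over all tested features the log2 change had a median of -0.16, and -0.02 with zeros kept at an offset of 0.01, so the changes below stand against a median near 0.

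Transcripts of mTERF9 were more abundant after proline in every same-numbered pair of samples. The deposited intensity in water was 0.240 and 0.255 in samples 1 and 2, 0.179 and 0.113 in samples 3 and 4, and 0.0391 and 0.0619 in samples 5 and 6. In proline it was 0.673 and 0.726, 0.519 and 0.578, and 0.227 and 0.227 in the same order. Within each set both proline samples lay above both water samples, while across sets the groups overlapped, since the proline samples of set 3 were below water samples 1 and 2. The deposited difference was 2.83-fold in set 1, 3.85-fold in set 2 and 4.61-fold in set 3. Partners within a set differed by at most 1.58-fold in water and 1.11-fold in proline.

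After quantile normalization the 6 proline samples no longer overlapped the 6 water samples for mTERF9, which its choice on this difference makes likely. The share of all features that separate in this way was not counted. The normalized log2 intensity of mTERF9 was -2.92 ± 0.72 in water and -1.32 ± 0.24 in proline (SD, n = 6 each). The log2 change was 1.60 ± 0.31 (SE) or 3.02-fold. Because this difference was used to choose the gene, it is given as a description without a test. By set the log2 change was 1.02, 1.83 and 1.94. The spread was unequal: the highest water sample exceeded the lowest 3.38-fold on the normalized scale, against 1.46-fold among the proline samples. In rank terms the probe lay above 55.0% to 82.3% of the values above 0 on the water arrays and above 86.3% to 89.6% on the proline arrays. The 6 proline samples were thus close together near the upper part of their arrays. Of the water samples those of set 1 stood highest, while sets 2 and 3 interleaved, with sample 4 above 62.5% and sample 6 above 65.9%.

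Transcripts of AT3G18870 were less abundant after proline in every same-numbered pair. The deposited intensity in water was 0.230 and 0.228 in samples 1 and 2, 0.143 and 0.125 in samples 3 and 4, and 0.0301 and 0.0316 in samples 5 and 6. In proline it was 0.105 and 0.0589, 0.00595 and 0.0251, and 0.00813 and 0.00164. Both proline samples lay below both water samples within each set, and across sets the groups overlapped, since proline samples 1 and 2 were above water samples 5 and 6. The deposited difference was 2.91-fold in set 1, 10.9-fold in set 2 and 8.45-fold in set 3. Water partners differed by at most 1.14-fold, but proline partners differed 1.79-fold, 4.22-fold and 4.96-fold in sets 1, 2 and 3.

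**Figure D1:**
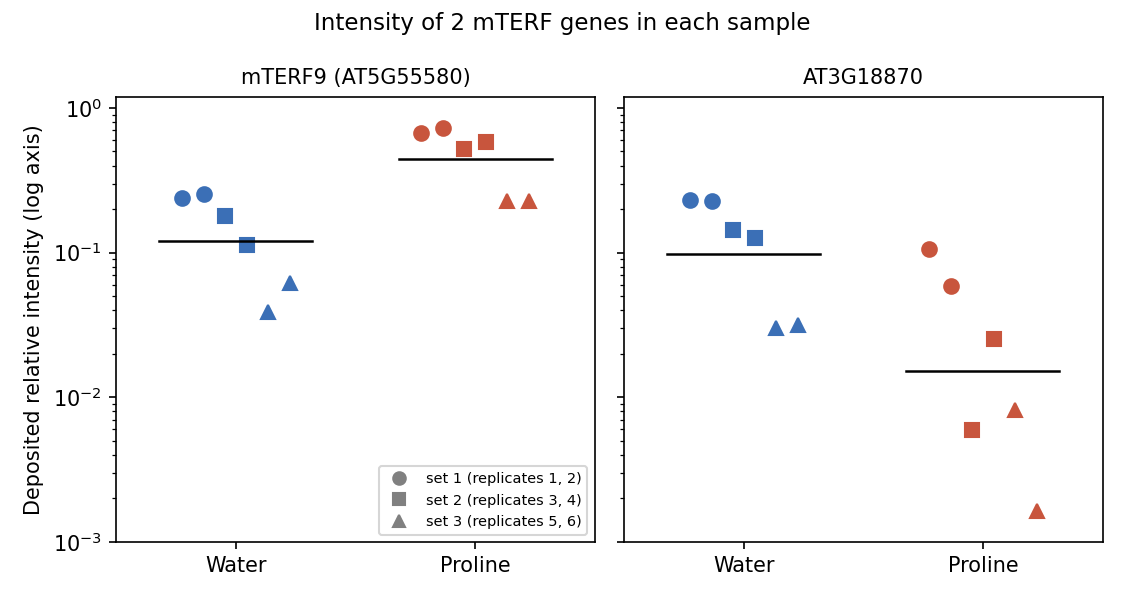
Deposited relative intensity (log axis) of mTERF9 and AT3G18870 in the 6 water and 6 proline samples. Each point is 1 sample, its shape gives the set, and the line is the geometric mean of the group. Within every set the proline points lie above the water points for mTERF9 and below them for AT3G18870, while both genes are dimmest in set 3.

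On the normalized scale AT3G18870 was at -3.19 ± 0.86 in water and -5.91 ± 1.56 in proline (SD, n = 6 each). This is a log2 change of -2.72 ± 0.73 (SE) or 6.57-fold lower, again without a test. The log2 change was -2.12, -3.18 and -2.85 in sets 1, 2 and 3. The groups still overlapped after normalization, at -3.93 for proline sample 1 against -4.17 and -4.15 for water samples 5 and 6. The probe lay above 47.7% to 80.6% of the values above 0 on water arrays and above 2.63% to 52.8% on proline arrays. Proline samples 3 and 6, above 4.90% and 2.63%, were therefore near the bottom of the measured range, where signal over background was not analysed here. With zeros kept and an offset of 0.01, which pulls dim values together, the log2 change of AT3G18870 was -1.81 (3.51-fold lower), while that of mTERF9 was 1.61.

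The 2 probes kept step in water and parted in proline. The ratio of the mTERF9 to the AT3G18870 intensity on the same array does not depend on how arrays are scaled to each other by a constant. Its level has no meaning of its own, since different probes are not on 1 scale, but its change between arrays has. In water the ratio was 1.04, 1.12, 1.25, 0.904, 1.30 and 1.96 in samples 1 to 6. In proline it was 6.40, 12.3, 87.2, 23.0, 28.0 and 138. No proline array overlapped a water array. The mean log2 ratio was 0.29 ± 0.38 in water and 4.87 ± 1.67 in proline (SD, n = 6 each), a shift of 4.57 or 23.8-fold. The size of this shift rests in part on the dim proline values of AT3G18870, and with an offset of 0.01 the log2 changes of the 2 genes differed by 3.43, or 10.7-fold. The shift was 8.22-fold in set 1, 42.1-fold in set 2 and 39.0-fold in set 3, so set 1 showed the smallest parting. This ratio joins both choices of gene and is no separate evidence for them.

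**Figure D2:**
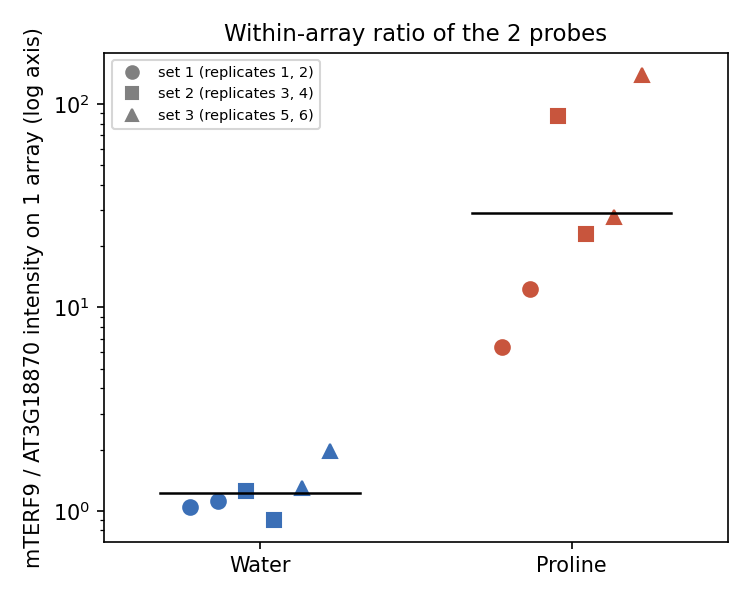
Ratio of mTERF9 to AT3G18870 deposited intensity on each of the 12 arrays (log axis). Points are arrays, shapes are sets and lines are geometric means. Water arrays lie between 0.904 and 1.96 and proline arrays between 6.40 and 138.

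A second probe that may read mTERF9 did not follow the first. Probe 4364 is annotated to mTERF9 and to another family gene, AT1G78930, and its signal cannot be given to either. Its deposited intensity in water was 0.0562, 0.0537, 0.145, 0.113, 0.0519 and 0.0336 in samples 1 to 6. In proline it was 0.0775, 0 (listed), 0.0579, 0.0570, 0.0101 and 0.00248. Among the 5 same-numbered pairs with both values above 0, it was higher with proline in 1 and lower in 4. The normalized log2 change was -1.36 ± 0.59 (SE, n = 6 and 5, adjusted p = 0.140 in limma, and 0.397 with the random block), and it was 0.26, -1.06 and -2.85 in sets 1, 2 and 3. The value in set 1 rests on proline sample 1 alone, and with zeros kept at an offset of 0.01 it turned to -0.95, with -0.76 and -1.78 in the other sets. In sets 2 and 3 this probe thus had a change below 0 where the single-gene probe of mTERF9 had one above 0. This probe was singled out after its values were seen, and what part of each transcript the probes match is not given in the sources used here.

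**Figure D3:**
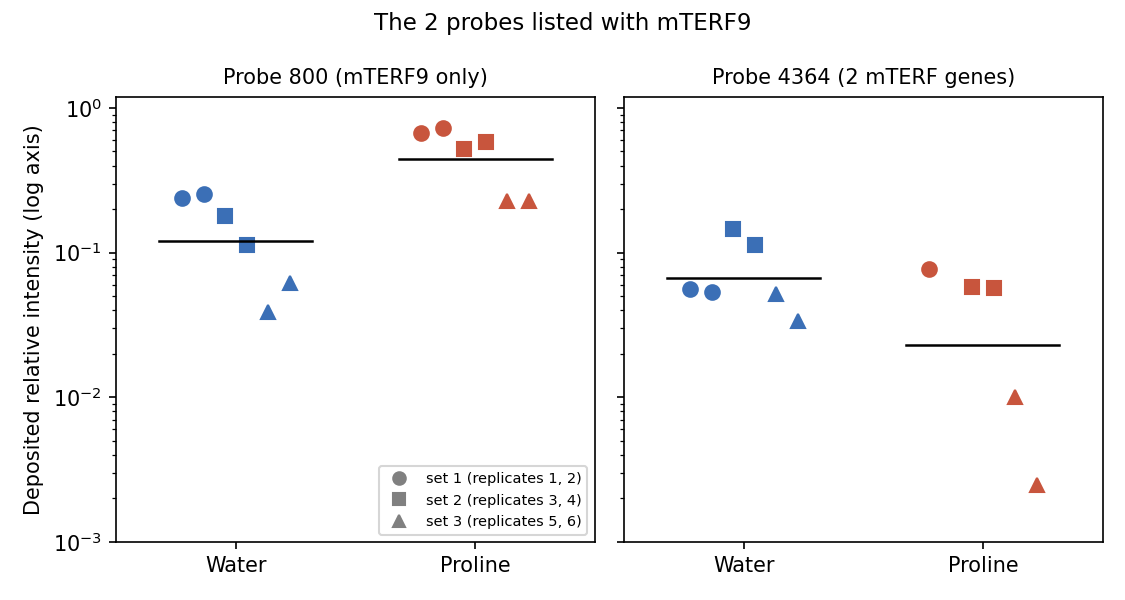
Deposited relative intensity (log axis) of the 2 probes annotated to mTERF9, probe 800 (mTERF9 only) and probe 4364 (mTERF9 and AT1G78930). Points are samples, shapes are sets, lines are geometric means of the values above 0, and proline sample 2, listed at 0 for probe 4364, is not drawn. The proline group lies higher for probe 800, while the proline samples of sets 2 and 3 lie lower than their water samples for probe 4364.

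The array holds 14 probes annotated to mTERF genes, and they name 19 of the 36 family loci listed. Besides mTERF9 and AT3G18870, 6 genes are read by a probe of their own and 6 probes are annotated to several genes, all of them in the family. Of the 6 other single genes 1 fell, none rose and 5 did not pass, against 7.65% of all features called lower. Their median log2 change was -0.71, with 5 below 0 and 1 above. Of the 6 probes with several genes 3 fell, none rose and 3 did not pass, with a median of -1.21. Over both kinds 9 of 12 were below 0, against 59% of all tested features, while 7 were below 0 and 2 above 0 in all 3 sets, against 27.7% and 16.9% of all tested features. With the random block 1 of these 12 passed, probe 4021, against 1.54% of all features called lower.

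AT1G62150 was the single gene that fell. Its deposited intensity was 0.102 at lowest, 0.226 at the median and 0.282 at highest in water, and 0.0639, 0.174 and 0.225 in proline. The normalized groups stood at -2.31 ± 0.19 and -2.95 ± 0.22 (SD, n = 6 each) and did not overlap, whereas the deposited ones did. The share of all features that separate after normalization was not counted. The log2 change of AT1G62150 was -0.64 ± 0.18 (SE, adjusted p = 0.0355 in limma), close to equal in the sets at -0.55, -0.68 and -0.69. The call was not held with the random block (adjusted p = 0.148), with arrays centred on the median (0.106), with cyclic loess (0.0727), with no normalization (0.594) or with zeros kept (0.0654 and 0.0810). It passed without water sample 1, water sample 5 or proline sample 2, and not without any 1 of the other 9 samples, where the adjusted p reached 0.0735. Over all settings run its adjusted p ranged from 0.00636 to 0.594.

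AT4G09620 was the other single family gene with a change above 0, like mTERF9. Its deposited intensity in water was 0.746 and 0.778 in set 1, 0.133 and 0.126 in set 2, and 0.142 and 0.180 in set 3. In proline it was 1.30 and 1.27, 0.894 and 0.766, and 0.478 and 0.516. Both water samples of set 1 lay above the proline samples of set 3, so the deposited groups overlapped. The normalized log2 change was 1.36 ± 0.49 (SE, n = 6 each), with 0.14, 2.48 and 1.47 by set, and it did not pass (adjusted p = 0.0850 in limma, 0.174 with the random block). It passed without water sample 1 (0.0330), without water sample 2 (0.0309) and without set 1 (0.00793), and with all samples when arrays were centred on the median (0.0324), with a fixed set block (0.0141) and with the trend and robust setting (0.0448).

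The other 4 single genes had changes below 0 that did not pass in limma. AT3G46950 had a log2 change of -0.91 ± 0.34 (SE, adjusted p = 0.0927). It passed with the replicate number as a block (0.0283), with a fixed set block (0.00798), without water sample 1 (0.0457) and without set 1 (0.0360). These were 4 of 28 settings, and it did not pass with the random block (0.247) or with set means (0.406). AT1G79220 was at -0.65 ± 0.37 (0.261) and AT1G61990 at -0.77 ± 0.40 (0.211). AT1G62010 was at -1.82 ± 0.95 (n = 6 and 5, 0.221), with -0.11, -6.84 and -0.52 by set. The value of AT1G62010 in set 2 rests on proline sample 3 alone, at a deposited intensity of 0.000472, since proline sample 4 is listed at 0. Without proline sample 3 its change was -0.81.

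Much of the measured family lies in 1 stretch of chromosome 1, where 10 of the listed loci run from AT1G61960 to AT1G62490. Genes there are close copies of each other, so a probe named for 1 of them may also read its neighbours. Of the 7 tested features annotated to a gene of this stretch, 6 were below 0, against 59% of all tested features, and 4 fell, against 7.65%. These 4 were AT1G62150 and the probes 1496, 1514 and 4021. Probe 4021 was the only 1 of them to pass with the random block (adjusted p = 0.0410, against 0.148 for AT1G62150, 0.303 for probe 1496 and 0.106 for probe 1514). It is also annotated to AT1G56380, a locus outside this stretch, and probes 1496 and 1514 are annotated to the same genes as each other. Of the 5 other family features 3 were below 0 and none passed in limma. An unadjusted p under 0.05 was found for 3 of these 5, among them probe 4364, against 939 of all 3045 tested features. The difference between the stretch and the other family features was not tested.

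Probes 1496 and 1514 are annotated to the same pair of genes, AT1G61980 and AT1G61970, and both fell. Probe 1496 had a log2 change of -1.60 ± 0.45 (SE, n = 6 each, adjusted p = 0.0355 in limma) and probe 1514 one of -1.31 ± 0.28 (n = 6 and 5, 0.0131). By set the changes were -1.06, -2.46 and -1.28 for probe 1496 and -0.94, -1.89 and -0.98 for probe 1514, so set 2 was the largest in both. Neither passed with the random block (0.303 and 0.106), and with the replicate block probe 1514 passed (0.0363) and probe 1496 did not (0.0522). Probe 1496 was also lost without water sample 3, 4 or 5 and without proline sample 1, 3 or 6, with an adjusted p of up to 0.0764.

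Probe 4021, annotated to AT1G62085, AT1G62110 and AT1G56380, fell in all 3 sets. Its deposited intensity in water was 0.699 and 0.901, 1.45 and 1.37, and 0.770 and 0.698 in sets 1, 2 and 3, and in proline 0.586 and 0.669, 0.668 and 0.690, and 0.422 and 0.434. Every proline sample lay below every water sample, though narrowly at the nearest (0.690 against 0.698). How many of all features separate in this way was not counted. The log2 change of probe 4021 was -1.12 ± 0.22 (SE, n = 6 each, adjusted p = 0.0101 in limma, 0.0410 with the random block). It missed the threshold when arrays were centred on the median (-0.78, 0.107), with no normalization (-0.72, 0.222) or without set 2 (-0.91, 0.134). Probe 1484 went the other way without passing, at 0.59 ± 0.22 (adjusted p = 0.0945). It is annotated to 4 genes, among them AT1G61990 and AT3G46950, whose own probes were below 0. Probe 2165, annotated to 3 genes and listed at 0 in 3 of 12 samples, was at 0.28 ± 0.57 (adjusted p = 0.770).

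**Figure D4:**
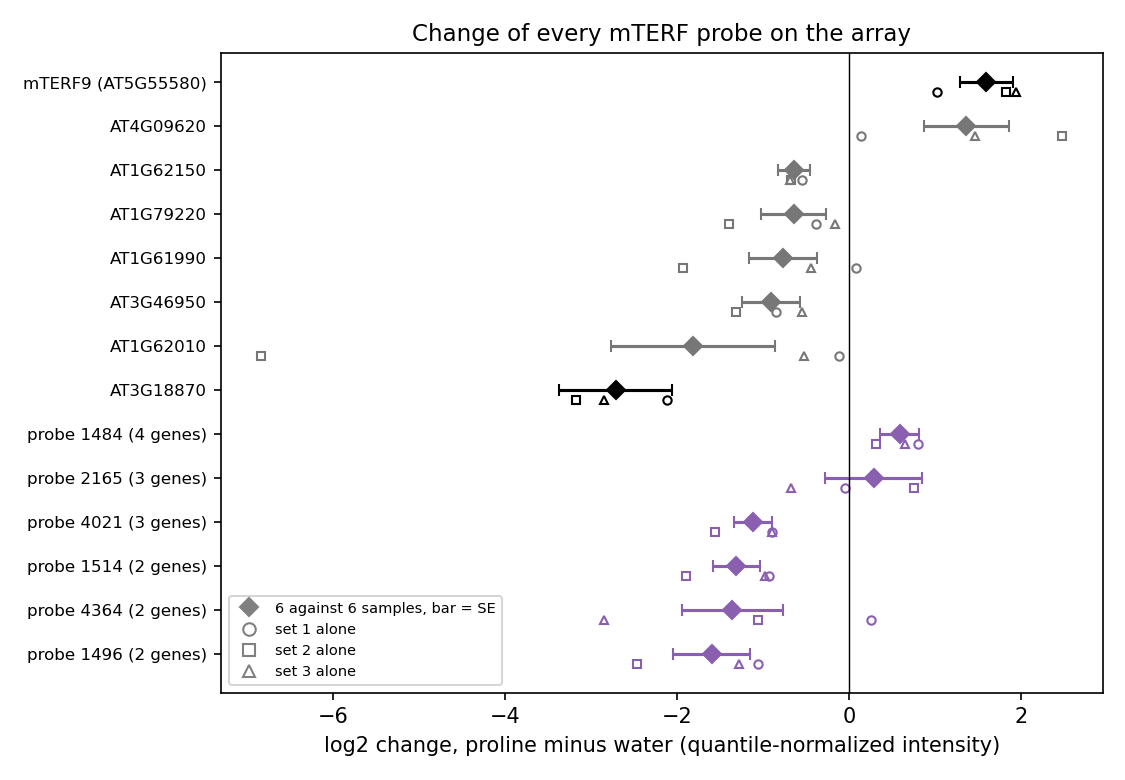
Normalized log2 change, proline minus water, of the 14 mTERF probes. Diamonds are the change over 6 against 6 samples (fewer where a sample is listed at 0) with its SE from the limma fit. Open shapes are the changes of sets 1, 2 and 3 alone. Black marks the 2 chosen genes, grey other single genes and purple probes with several genes. mTERF9 at 1.60 and AT3G18870 at -2.72 are the ends of the single-gene range, which their choice makes likely.

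Few of the listed genes of the machinery in which mTERF proteins work were on the array under a single name. None of the 25 listed genes of organellar transcription (plastid polymerase-associated proteins, sigma factors, phage-type polymerases and Whirly proteins), none of 9 genes of retrograde signalling from organelle to nucleus and none of the 78 loci annotated as pentatricopeptide repeat proteins was measured in this way. Those 78 are the loci whose listed symbol or synonyms name such repeats, so family members without that name were not looked up. Of 39 nuclear genes of plastid ribosomal proteins, the ribosome that mTERF9 helps to assemble, 5 were measured and 3 tested. None of the 3 passed in limma, and 2 had an unadjusted p under 0.05, against 939 of all 3045 tested features. All 3 were below 0, against 59% of all tested features, with a median log2 change of -0.73. AT3G13120 had a change of -0.73 ± 0.26 (SE, n = 6 each, adjusted p = 0.0811), AT3G54210 of -0.66 ± 0.26 (0.104) and AT1G64510 of -0.99 ± 0.53 (0.229). By set AT3G13120 was at -0.85, -1.35 and 0.0030, so it was not lower in set 3.

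Both plastid ribosomal genes that were not tested had too few values above 0. AT1G29070 had intensities of 0.0111 at lowest, 0.0272 at the median and 0.0495 at highest in water and was listed at 0 in all 6 proline samples. With zeros kept it was called lower in limma at either offset (adjusted p = 0.00431 at 0.01 and 0.00371 at 0.001), a call that rests on reading each 0 as a low level. In those fits 210 and 143 of all 3438 features were called lower. AT5G65220 was above 0 in 2 water samples and 1 proline sample. Whether an exact 0 is a low level or a failed measurement is not given in the sources used here.

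The genes whose pattern over the 12 samples was most like that of each member were found by the root mean square difference of normalized log2 values, each gene centred on its own mean, among 444 other single genes with all values. For mTERF9 the nearest was AT4G32060, a calcium-binding EF-hand protein of mitochondria, at 0.299, followed by AT3G44570 (0.343), AT5G46560 (0.366), AT1G67800 of the copine family (0.382) and AT3G19120 (0.383). The median over all 444 genes was 1.21, and mTERF9 itself varied by 0.935 around its mean. AT4G32060 also came first under the 3 other scalings. All 5 had a log2 change between 1.15 and 1.55, so the likeness in part restates the group difference.

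AT3G18870 had no neighbour as close. The nearest were AT5G10920, an argininosuccinate lyase of arginine synthesis, at 1.11, AT5G62360 (1.12), AT5G19940 of the plastid fibrillin family (1.12), AT4G21770 (1.23) and AT5G11550, an armadillo-repeat protein (1.23). The order depended on the scaling: AT5G19940 came first with arrays centred on the median and with no normalization, where AT5G10920 was in place 3. The median over the 444 genes was 1.87, and AT3G18870 itself varied by 1.78 around its mean. This distance grows with a gene's own scatter, and the proline samples of AT3G18870 spread 17.8-fold on the normalized scale. The log2 changes of these 5 genes lay between -2.54 and -1.35, so here too the likeness in part restates the group difference.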

How the data were processed

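The authors deposited 1 table of relative intensity per probe on a linear scale. Scanner, dyes, background correction and normalization: not given in the sources used here. Probe genes came from a platform annotation, updated through gene identifiers to TAIR10.1 names: 692 of 3439 probes had 1 gene, 870 several and 1877 none listed. No coordinates or sequences are given. A value of 0 counted as missing. The rest were taken to log2, quantile normalized between arrays and averaged per locus. Every feature with 4 or more values per group entered limma 3.58.1 (R 4.3.3, statmod 1.5.0) without covariates, with Benjamini-Hochberg adjustment over all 3045. The random block is the set within its group (duplicateCorrelation, estimated correlation 0.593). The fit was tested on simulated data of independent samples without sets, which could not show what likeness within sets does to the calls. Same-numbered water and proline samples deviated together, with correlations of 0.134 to 0.256 in the 6 pairs, each highest with its own number, so the replicate number was also fitted as a block. Figures used matplotlib 3.10.9.

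The members, lists and settings were chosen with earlier results of these data known. Named were both members, every measured gene of the mTERF, organellar transcription, plastid ribosomal and retrograde lists, and the 5 genes most like each member. The probes with several mTERF genes were added from the annotation. The other settings were another scaling, zeros kept, other filters, blocks, set means and left-out samples or sets.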

Additional observations from a re-analysis of the deposited data

How the results depend on the processing

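Over 24 other settings the log2 change of mTERF9 stayed between 1.38 and 1.96, that of AT3G18870 between -3.12 and -1.81, and the difference between them between 3.43 and 5.08. With 1 sample left out these ranges were 1.40 to 1.78, -3.11 to -2.25 and 3.90 to 4.68. The replicate block left these values as they were (1.60, -2.72 and 4.31), gave 436 calls over all features, 2 in the mTERF list and in all organellar lists, and 2 among the probes with several mTERF genes. The main counts were 401, 1, 1 and 3. In the same order of calls over all features, in all organellar lists, in the mTERF list and among the probes with several genes, they were 20, 0, 0 and 0 with no normalization between arrays, 783, 5, 3 and 4 with a fixed set block, 82, 0, 0 and 1 with the random block, 0, 0, 0 and 0 with set means in limma (472 features had an unadjusted p under 0.05), 29, 0, 0 and 0 without set 2, 193, 0, 0 and 1 without set 3, and 589, 2, 2 and 2 without set 1. Cyclic loess gave 0 in both lists, and the trend and robust setting 3 in all lists and 2 in the mTERF list. Zeros kept gave 0 in the mTERF list and 1 in all organellar lists, AT1G29070, at either offset and, at 0.001, 1 among the probes with several genes. With 1 sample left out the counts ranged from 245 (without water sample 3; 248 without water sample 4) to 480, from 0 to 3, from 0 to 3 and from 2 to 3. Probe 2165 reversed, to -0.0020, with zeros kept at an offset of 0.001. The causes were not tested. The number of arrays and the dim signal of AT3G18870 in proline limit the precision.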
